A study of Mus musculus with 12 samples.

Results

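The interaction between the fat cell inducing cocktail MDI and lithium chloride was measured for each microRNA (miRNA) of mouse 3T3-L1 cells, using all 12 of the study's 12 arrays. Samples were chosen by their labels: every array belongs to 1 of 4 groups that cross MDI with lithium. The interaction is the MDI difference in the presence of lithium (lithium plus MDI minus lithium) minus the MDI difference without it (MDI minus preadipocytes), in log2 units. A value of 0 means that the combined treatment lay at the sum of the single differences, and 1 means that it lay 2-fold above that sum. Of 611 mouse miRNAs with probes on the array, 157 were tested, namely those that all 3 arrays of 1 group or more detected. They were not chosen by their interaction.

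3T3-L1 is a clonal line of mouse embryo fibroblasts that can turn into fat cells in culture. The first group, labelled preadipocytes, held 3 arrays of such cells without either treatment named. The MDI group, with 3 arrays, received isobutylmethylxanthine, dexamethasone and insulin for 3 days, insulin for 2 days and plain medium for 2 days, to day 7. The lithium group, with 3 arrays, received 25 mM lithium chloride without MDI, and the last group, with 3 arrays, received 25 mM lithium chloride together with MDI. The times in culture of the preadipocyte, lithium and lithium plus MDI groups were not given in the sources used here. The labels do not say whether arrays of a group represent separate cultures. The p-values therefore rest on the spread between the deposited samples, which can be purely technical.

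MDI starts adipogenesis by raising cyclic AMP, activating the glucocorticoid receptor and stimulating insulin signalling. Lithium inhibits glycogen synthase kinase 3, which stabilises β-catenin and mimics WNT signalling, a pathway that holds preadipocytes undifferentiated. A mature miRNA pairs through its seed, the stretch near its 5′ end, with target messenger RNAs and lowers their stability or translation, so miRNAs with one seed share many predicted targets.

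Values are log2 signals relative to the 75th percentile of each array, taken over 181 probes detected on all 12 arrays, with a floor of -4.97. Each array detected between 126 and 175 miRNAs, and 108 miRNAs were detected on all 12. Of 7 mesenchymal marker miRNAs, among them miR-199a, miR-214 and miR-143, all 7 were detected and 6 were detected on every array. Detection was seen for 1 of 6 epithelial, 1 of 4 neural, 0 of 4 muscle, 0 of 5 blood and 0 of 3 liver or endothelial markers. Messenger RNA markers of fat cells were not measured on these arrays. All 3 preadipocyte arrays and MDI array 1 were hybridised on slide 1, and the other 8 arrays on slide 2. Neither the lithium difference without MDI nor the combined difference from preadipocytes can be told apart from the slide. The interaction cannot be computed within a slide. Over the tested miRNAs, 6 of the 12 arrays had a higher mean correlation with another group than with their own, among them the 3 arrays that correlated least with their own group. Preadipocyte array 3 had a mean correlation of 0.939 with its own group and 0.957 with lithium arrays. Lithium array 1 had 0.942 with its own group and 0.960 with MDI arrays. Lithium plus MDI array 3 had 0.924 with its own group and 0.965 with preadipocyte arrays. The other two arrays of that group and MDI array 1 correlated best with the MDI and the lithium plus MDI group, respectively. As the RNA came from whole cultures, a lower level of a miRNA in every cell and fewer cells that carry it cannot be told apart.

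The mature sequences of the miRNAs on which the results turn are given 5′ to 3′ from RefSeq (GRCm38.p6), with the seed, bases 2 to 8, in capitals. Array names predate present arm names and were matched by hand. Of 36 names looked up, 32 matched, and miR-23b, miR-532-5p, miR-185 and miR-466f-3p are named only. The first set holds miRNAs with a positive interaction whose mean signal lay below preadipocytes after each single treatment. For miR-10b and miR-181a the combined mean lay above that after MDI, but not above that after lithium. miR-181a and miR-181b share a seed and 20 of 23 positions, and are encoded side by side at chr1:137966468-137966490 and chr1:137966650-137966673, both on the plus strand, with second copies at chr2:38852741-38852763 and chr2:38853845-38853868.
miR-181a: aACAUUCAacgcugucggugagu
miR-181b: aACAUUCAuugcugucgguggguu
miR-10b: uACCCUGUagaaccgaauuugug
miR-155: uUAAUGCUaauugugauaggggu
miR-652: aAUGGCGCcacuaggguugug
let-7i: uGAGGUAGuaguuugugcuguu
let-7e: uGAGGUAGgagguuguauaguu
miR-301a: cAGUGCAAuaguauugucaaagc

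The next set holds miRNAs whose signal lay high after each single treatment, or after lithium, without adding up in the combination. miR-96 at chr6:30169506-30169528 and miR-182 at chr6:30165962-30165986 come from one cluster on the minus strand, and 6 of their 7 seed positions are identical. miR-193 and miR-193b share a seed and 19 of 22 positions. miR-466i and miR-467f belong to a repeat-rich family and consist largely of alternating a and c.
miR-96: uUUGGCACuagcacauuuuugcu
miR-182: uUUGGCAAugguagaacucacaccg
miR-193: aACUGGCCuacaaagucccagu
miR-193b: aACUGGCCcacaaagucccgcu
miR-466i: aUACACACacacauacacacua
miR-467f: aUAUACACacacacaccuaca

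The last set holds miRNAs for which the combination lay near the sum of the single differences, or for which the MDI difference was retained in part or in full. miR-27b is an exception, listed as the relative of miR-27a: its interaction was 1.35, and its MDI difference was 0.22 without lithium and 1.57 with it. miR-20a and miR-20b retained the smaller part, with MDI differences of 1.38 and 1.34 without lithium and 0.45 and 0.48 with it. By the rule given below both count as blocked. miR-27a and miR-27b are identical at 20 of 21 positions, and miR-130a has the seed of miR-301a.
miR-27a: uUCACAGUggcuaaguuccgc
miR-27b: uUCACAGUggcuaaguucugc
miR-130a: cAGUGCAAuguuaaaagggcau
miR-30c: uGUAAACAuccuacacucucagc
miR-20a: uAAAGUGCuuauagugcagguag
miR-20b: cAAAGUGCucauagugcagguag
miR-99a: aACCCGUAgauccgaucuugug
miR-7a: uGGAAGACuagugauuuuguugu
miR-31*: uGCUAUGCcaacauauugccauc

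Across the 157 tested miRNAs, the interaction was more often positive than negative, but it passed the threshold for none of them. It was above 0 in 103 miRNAs (65.6%), with a median of 0.26. In limma's moderated test with Benjamini-Hochberg adjustment over all tested miRNAs, 0 of 157 (0.0%) had an adjusted p under 0.05, and 35 (22.3%) had an unadjusted p under 0.05. Of those 35, 24 were positive (15.3%) and 11 were negative (7.01%). The smallest adjusted p was 0.0612, shared by miR-181b, miR-185, miR-466f-3p, miR-466i and miR-467f. The count of 0 depended on single arrays: without preadipocyte array 3 the same test called 26 miRNAs, 20 positive and 6 negative. Without MDI array 2 it called 3, miR-466f-3p, miR-466i and miR-467f. Without lithium plus MDI array 3 it called 2, miR-466f-3p and miR-466i. These 2 entered the tested set through the lithium group alone, so their p-values are no test. Leaving out preadipocyte array 3, lithium array 1 and lithium plus MDI array 3 together, a choice made after seeing the data, gave 69 calls, 52 positive and 17 negative. The median standard error of an interaction was 0.47, against 0.34 for a single difference.

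The 35 miRNAs with an unadjusted p under 0.05 followed a pair of profiles. Of the 24 with a positive interaction, 23 lay below preadipocytes after MDI alone and also after lithium alone, and in 23 of the 24 the combined treatment lay less than 2-fold from preadipocytes. Their median difference between lithium plus MDI and preadipocytes was -0.14. All 11 with a negative interaction lay above preadipocytes after each single treatment, and 9 of the 11 lay less than 2-fold from preadipocytes after both, with a median of 0.40. The preadipocyte arrays enter both single differences, the combined difference and the interaction, so these signs are not independent of each other. Of the positive 24, 19 were detected on all 12 arrays, against 3 of the negative 11. Of the negative 11, 6 entered the tested set only because all 3 lithium arrays detected them, so their choice favoured a high lithium level, which lowers the interaction. Among all tested miRNAs, 8 entered through the preadipocyte group alone, where a high level raises the interaction. How many of those were among the positive 24 was not counted.

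miR-181b had the largest positive interaction. This miRNA is widely expressed and is best known for its roles in lymphocyte signalling and in inflammation. Its log2 signal was -0.97, -0.93 and -1.97 in preadipocytes, -2.56, -3.14 and -3.46 after MDI, -2.81, -2.89 and -2.78 after lithium, and -2.41, -2.63 and -1.50 after both. All 3 preadipocyte arrays lay above all 3 MDI arrays and all 3 lithium arrays, while the combined arrays overlapped the MDI group and lay above all 3 lithium arrays. MDI alone lowered it 3.39-fold (limma adjusted p = 0.0263) and lithium alone 2.90-fold (limma adjusted p = 0.0191). The sum of both single differences would have put the combined group at -4.59, whereas its mean was -2.18. The interaction was 2.41 ± 0.52 (SE, 3 arrays a group), a 5.31-fold excess over the sum, with a 95% interval from 1.29 to 3.53 and a limma adjusted p of 0.0612. It was the only miRNA of the 157 whose whole interval lay above 1.

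Its near-identical relative miR-181a followed the same course with a smaller lithium difference. The signal was -1.29, -1.51 and -1.80 in preadipocytes, -2.72, -3.20 and -3.63 after MDI, -2.20, -2.55 and -2.13 after lithium, and -2.65, -2.96 and -1.36 after both. MDI alone lowered it 3.14-fold (limma adjusted p = 0.0277), while the MDI difference in the presence of lithium was -0.03. Lithium plus MDI array 3 lay at preadipocyte level, and the other combined arrays lay near the MDI group. The interaction was 1.62 ± 0.54 (limma adjusted p = 0.103). Probes for 2 such similar miRNAs may share target, so the pair is not 2 independent observations.

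miR-10b, encoded in the Hoxd gene cluster, also fell after MDI alone. Its signal was 0.41, 0.46 and 0.10 in preadipocytes and -1.12, -1.47 and -2.05 after MDI, a 3.66-fold drop (limma adjusted p = 0.0263). The values were -1.25, -0.18 and -0.01 after lithium and -1.07, -1.07 and -0.13 after both treatments, so that lithium array 1 sat with the MDI arrays and the combined arrays overlapped the lithium group. The MDI difference was -1.87 without lithium and -0.28 with it, and the interaction was 1.60 ± 0.54 (limma adjusted p = 0.103).

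miR-155, processed from the BIC transcript and known to restrain fat cell differentiation by targeting C/EBPβ, had a negative MDI difference alone and a positive one beside lithium. Preadipocytes lay at -0.15, 0.30 and -1.34, MDI at -1.49, -1.53 and -1.29, lithium at -1.87, -2.18 and -1.40, and both at -0.72, -0.71 and -1.32. The combined arrays lay above all lithium arrays, and preadipocyte array 3 lay within the range of the treated groups. Lithium alone lowered it 2.67-fold (limma adjusted p = 0.0382). The MDI difference was -1.04 without lithium and 0.90 with it. The interaction was 1.94 ± 0.54 (limma adjusted p = 0.0621) and 2.41 without preadipocyte array 3.

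miR-301a, which is encoded within an intron of Ska2, had the second largest positive interaction at 2.36 ± 0.69 (limma adjusted p = 0.0797). Its signal was -2.60, -2.87 and -3.07 after lithium and -1.07, -1.28 and -0.76 after both, groups that did not overlap. Preadipocytes spread from -2.70 to -0.48 and MDI from -2.58 to -1.17. miR-130a, which has the same seed, lay between 1.12 and 1.88 on all 12 arrays and had an interaction of 0.04 (95% interval -0.70 to 0.77). These 2 miRNAs thus share a seed but had unlike interaction values, and the difference between them was not tested. The sign of the miR-130a value turned negative under quantile normalization and in the authors' value table.

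Smaller interactions, with standard errors below the median of 0.47, were seen for miR-185, miR-652, miR-532-5p and let-7i. miR-185 lay at -2.68, -2.74 and -3.13 in preadipocytes, -3.25, -3.31 and -3.56 after MDI, -3.32, -3.80 and -3.61 after lithium, and -2.75, -2.95 and -2.59 after both. The combined arrays overlapped the preadipocytes and lay above every MDI and every lithium array. The interaction of miR-185 was 1.34 ± 0.35 (limma adjusted p = 0.0612) and ranged from 1.23 to 1.48 on leaving out each array in turn. For miR-652 the interaction was 1.32 ± 0.37 (limma adjusted p = 0.0621), with a combined difference from preadipocytes of -0.06. miR-532-5p had an interaction of 1.16 ± 0.35 and let-7i one of 1.33 ± 0.42, each with a limma adjusted p of 0.0865. All 4 were detected on all 12 arrays.

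miR-96 and miR-182, neighbours in a cluster known from sensory organs and from repression of FOXO transcription factors, were higher after either treatment and no higher after both. miR-96 lay at -1.75, -1.25 and -2.19 in preadipocytes, -0.44, -0.46 and -0.47 after MDI, -0.12, -0.36 and -0.17 after lithium, and -0.02, -0.51 and -0.96 after both. All preadipocyte arrays lay below all arrays of the other 3 groups, which overlapped. MDI alone raised it 2.41-fold (limma adjusted p = 0.0277) and lithium alone 2.85-fold (limma adjusted p = 0.0105). The sum of both would have been 1.05, and the measured mean of the combined group was -0.49. The interaction was -1.55 ± 0.42 (limma adjusted p = 0.0621).

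miR-182 showed the same order with more spread. It lay at -2.69, -2.45 and -3.88 in preadipocytes, at -1.99, -1.48 and -1.47 after MDI, at -1.88, -1.51 and -1.65 after lithium, and at -1.25, -1.35 and -2.90 after both. Its interaction was -1.51 ± 0.63 (limma adjusted p = 0.194), and -0.98 without lithium plus MDI array 3, which lay among the preadipocytes. The third member of the cluster, miR-183, lay at -0.93, -0.57 and -2.64 in preadipocytes and between -1.69 and -0.51 elsewhere, with an interaction of -0.06. miR-96, miR-182, miR-181b and miR-155 were the 4 miRNAs that differed by at least 2-fold after each single treatment, and in all 4 the single differences had the same sign. For none of the 4 did the combined difference reach the sum.

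miR-193, a miRNA linked to brown fat cell development, had the most negative interaction. It lay at -4.09, -3.87 and -2.66 in preadipocytes, -2.54, -3.53 and -3.18 after MDI, -2.43, -0.31 and -0.42 after lithium, and -2.75, -3.70 and -2.25 after both. Lithium arrays 2 and 3 stood more than 2-fold above every other array, while lithium array 1 lay within the range of the MDI and combined groups. Lithium alone raised it 5.60-fold (limma adjusted p = 0.0173), and the lithium difference in the presence of MDI was 0.18. The interaction was -2.30 ± 0.81 (limma adjusted p = 0.119) and -2.99 to -1.90 on leaving out single arrays. miR-193b, with the same seed, had a lithium difference of 0.75 ± 0.38 (SE) alone, an MDI difference of -1.35 with lithium, and an interaction of -0.69 ± 0.54 (limma adjusted p = 0.493).

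miR-466f-3p, miR-466i and miR-467f bear the family names of the miRNAs that lie in an intron of Sfmbt2, and were clearly detected only in part of the groups. They are grouped by name and not by locus: RefSeq places miR-466i at chr13:17747552-17747573 and miR-467f at chr11:69635419-69635439. miR-466f-3p lay at -4.57, -4.97 and -4.70 in preadipocytes, -3.45, -4.76 and -4.54 after MDI, -2.66, -2.88 and -2.68 after lithium, and -4.49, -4.55 and -3.62 after both. The lithium arrays lay above all others, and MDI array 1 and lithium plus MDI array 3 came next. It was detected on 2 preadipocyte, 1 MDI, 3 lithium and 2 combined arrays. Its mean was 4.02-fold higher after lithium alone than in preadipocytes, the lithium difference beside MDI was 0.03, and the interaction was -1.98 ± 0.50. As miR-466f-3p and miR-466i entered the tested set through the lithium group alone, where they were high, these values are descriptions and their p-values are no test. miR-466i was at the floor on all 3 preadipocyte arrays, so its lithium difference of 1.70 and its interaction of -1.81 are fitted from floored values. miR-467f had a lithium difference of 1.48 (limma adjusted p = 0.0113) and an interaction of -1.79 ± 0.44 (limma adjusted p = 0.0612). With normexp background correction these 3 interactions shrank to -0.22, -0.02 and -0.14.

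**Figure D1:**
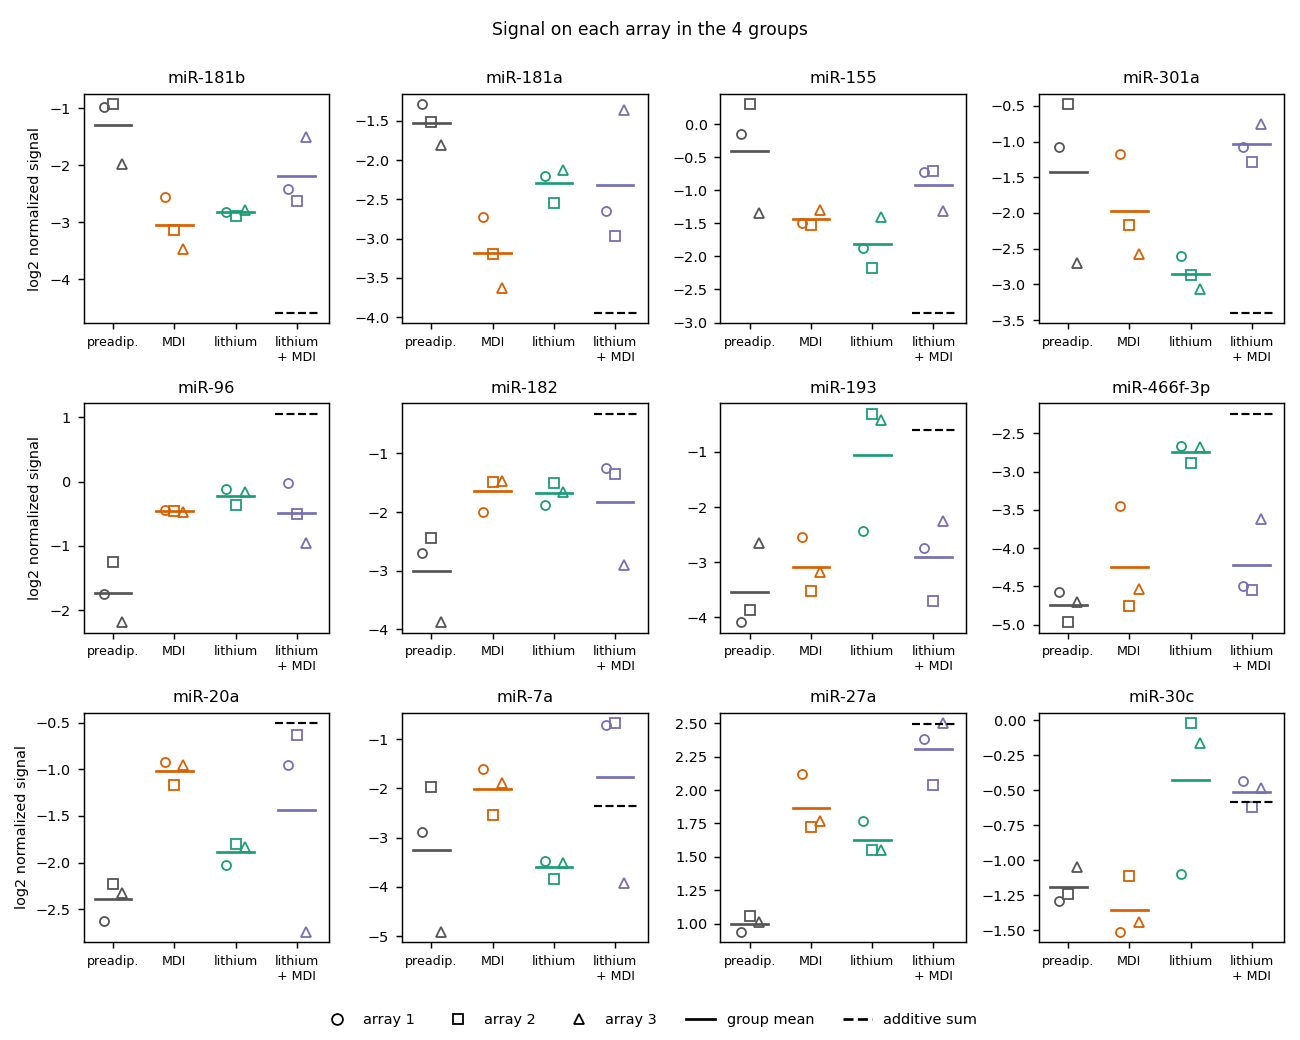
Log2 normalised signal (y axis, relative to the 75th percentile of each array) of 12 miRNAs in the 4 groups (x axis); symbols are single arrays, solid lines are group means and the dashed line is the level at which the single differences would add up. For miR-181b the combined mean of -2.18 sits far above the dashed line at -4.59, for miR-96 the combined mean of -0.49 sits below the line at 1.05, and for miR-27a and miR-30c line and mean nearly meet.

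To ask which MDI differences survived in the presence of lithium, the 18 miRNAs (11.5%) that differed by at least 2-fold between MDI and preadipocytes were followed into the comparison of lithium plus MDI with lithium, which shares no array with the first. A difference was called kept where at least 0.5 of it, in log2 units, remained with the same sign, reversed where it reached at least 0.5 of its size with the opposite sign, and blocked in between. By that rule 7 were kept, 10 blocked and 1 reversed, with no test. Of the 14 detected on all 12 arrays, 5 were kept, 8 blocked and 1 reversed. The 10 miRNAs (6.37%) that were higher after MDI alone had a median MDI difference of 0.46 with lithium, near the 0.39 of all tested miRNAs. The 8 (5.10%) that were lower had a median of -0.15. A total of 13 of the 18 retained their sign, and 4 remained at 2-fold or more. Over all tested miRNAs the MDI difference with lithium was above 0 in 71.3% and reached 2-fold in 15.3%. Over all 157 miRNAs the MDI differences with and without lithium had a correlation of 0.23, given as a description across miRNAs measured on the same arrays. In the comparison with preadipocytes, limma called 5 MDI differences (3.18%) at an adjusted p under 0.05, those of miR-181b, miR-181a, miR-10b, miR-96 and miR-31*. It called none of the 5 without preadipocyte array 1, preadipocyte array 2, MDI array 2 or MDI array 3. MDI arrays 2 and 3 lay on slide 2, apart from the preadipocytes, and with the slide as a block limma called 0. With normexp background correction it also called 0. In the presence of lithium it called 0 (0.0%), with 48 at an unadjusted p under 0.05 (30.6%). The number of adjusted calls rose from 0 to 38 on leaving out the third lithium plus MDI array, to 32 and 24 on leaving out lithium array 1 and preadipocyte array 3, and to 10 on leaving out MDI array 1.

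The kept miRNAs were miR-99a, miR-31*, miR-210, miR-18a, miR-92a, miR-146b and miR-7a. miR-31*, the less abundant strand of the miR-31 hairpin, lay at -3.86, -3.92 and -4.41 in preadipocytes, -2.89, -2.76 and -2.35 after MDI, -2.99, -3.49 and -3.46 after lithium, and -2.31, -2.21 and -3.22 after both. MDI alone raised it 2.64-fold (limma adjusted p = 0.0277), both treatments together 2.79-fold (limma adjusted p = 0.0309), and its MDI difference with lithium was 0.73. miR-99a, a miRNA that targets the mTOR kinase, had MDI differences of -2.15 and -1.18. Its arrays split within groups, at -0.85, -0.94 and 0.98 in preadipocytes and at -1.59, 0.12 and 0.13 after lithium, with MDI between -2.88 and -1.92 and the combination at -2.20, -2.53 and -0.15. Without preadipocyte array 3, lithium array 1 and lithium plus MDI array 3 its interaction moved from 0.97 to -0.96.

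miR-7a had the largest MDI difference beside lithium among the kept miRNAs, 1.84, after 1.25 without lithium. It lay at -2.89, -1.98 and -4.91 in preadipocytes, -1.61, -2.54 and -1.89 after MDI, -3.47, -3.84 and -3.51 after lithium, and -0.71, -0.68 and -3.93 after both. The third array of the combined group lay with the lithium arrays and the other 2 lay above every other array. Its interaction, 0.59 ± 1.14, had the second widest standard error among the miRNAs shown, after that of miR-146b at 1.18. miR-146b, a miRNA induced by inflammatory signals and reported to promote fat cell differentiation, had MDI differences of -1.10 and -1.76 and spanned -2.02 to 0.41 within the preadipocytes.

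Among the blocked miRNAs were several miRNAs of the cluster that spans miR-17 to miR-92a and of its paralog, clusters known for driving proliferation. miR-20a lay at -2.63, -2.23 and -2.33 in preadipocytes, -0.92, -1.17 and -0.95 after MDI, -2.03, -1.80 and -1.83 after lithium, and -0.95, -0.63 and -2.74 after both. MDI and preadipocyte arrays did not overlap, and the combined group was split, with arrays 1 and 2 at or above the MDI level and array 3 below every preadipocyte array. The MDI difference was 1.38 without lithium (limma adjusted p = 0.0830) and 0.45 with it, and the interaction of -0.93 moved to -0.29 without lithium plus MDI array 3. miR-20b, from the X-linked paralog cluster, showed the same split at -2.36, -1.90 and -4.03. Thus the blocked label of these miRNAs rested on 1 array. Without it, 10 of the 18 MDI differences were kept, 7 blocked and 1 reversed.

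The same procedure was applied to lithium. Limma called 10 lithium differences (6.37%) at an adjusted p under 0.05 and 18 miRNAs (11.5%) differed by at least 2-fold, 12 higher (7.64%) and 6 lower (3.82%). The calls numbered 33 without preadipocyte array 3, 26 without lithium array 1, 5 and 3 without preadipocyte arrays 1 and 2, and 6 and 2 without lithium arrays 2 and 3. They numbered 5 with the slide as a block and 0 with normexp. In the presence of MDI, 1 of these 18 lithium differences was kept, 15 were blocked and 2 were reversed. The lithium difference alone set slide 2 against slide 1, whereas the one beside MDI lay on slide 2 except for MDI array 1. Slide and treatment therefore cannot be told apart in these counts. No miRNA reached 2-fold between lithium plus MDI and MDI (0.0%), limma called 0 (0.0%), and 6 had an unadjusted p under 0.05 (3.82%). The 12 that were higher after lithium alone had a median lithium difference of -0.02 beside MDI, and the 6 that were lower one of 0.49, against 0.18 for all tested miRNAs. A total of 6 of the 18 retained their sign, where 72.6% of all tested miRNAs lay above 0. Over all 157 miRNAs the lithium differences with and without MDI had a correlation of -0.27, again as a description. Among the 10 miRNAs detected on all 12 arrays, 1 was kept, 7 were blocked and 2 reversed. The detection rule let in 16 miRNAs through the lithium group alone. Of the 10 lithium calls 5 came from these, for which the call is no independent test, and 6 of the 12 that were higher came from these, namely miR-466f-3p, miR-466i, miR-466g, miR-574-3p, miR-1187 and miR-1196.

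The lithium difference that was kept belonged to miR-494, at -1.31 alone and -0.69 beside MDI, while miR-181b and miR-301a were reversed. miR-494 lay at -2.98, -2.61 and -2.79 after lithium, below all 3 preadipocyte arrays at -0.68, -1.68 and -2.10, and at -1.61, -1.95 and -2.14 after both. miR-322, a member of the miR-15/16 superfamily that accumulates in differentiating and quiescent cells, had a lithium difference of 1.31 that was blocked at -0.11. Its preadipocyte arrays lay at -1.28, -0.94 and 2.05 and its lithium arrays at 1.03, 1.26 and 1.47, so that the third preadipocyte array exceeded all of the lithium arrays. The interaction of miR-322 was -1.42 ± 1.02 and lay between -2.47 and -0.81 on leaving out single arrays.

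**Figure D2:**
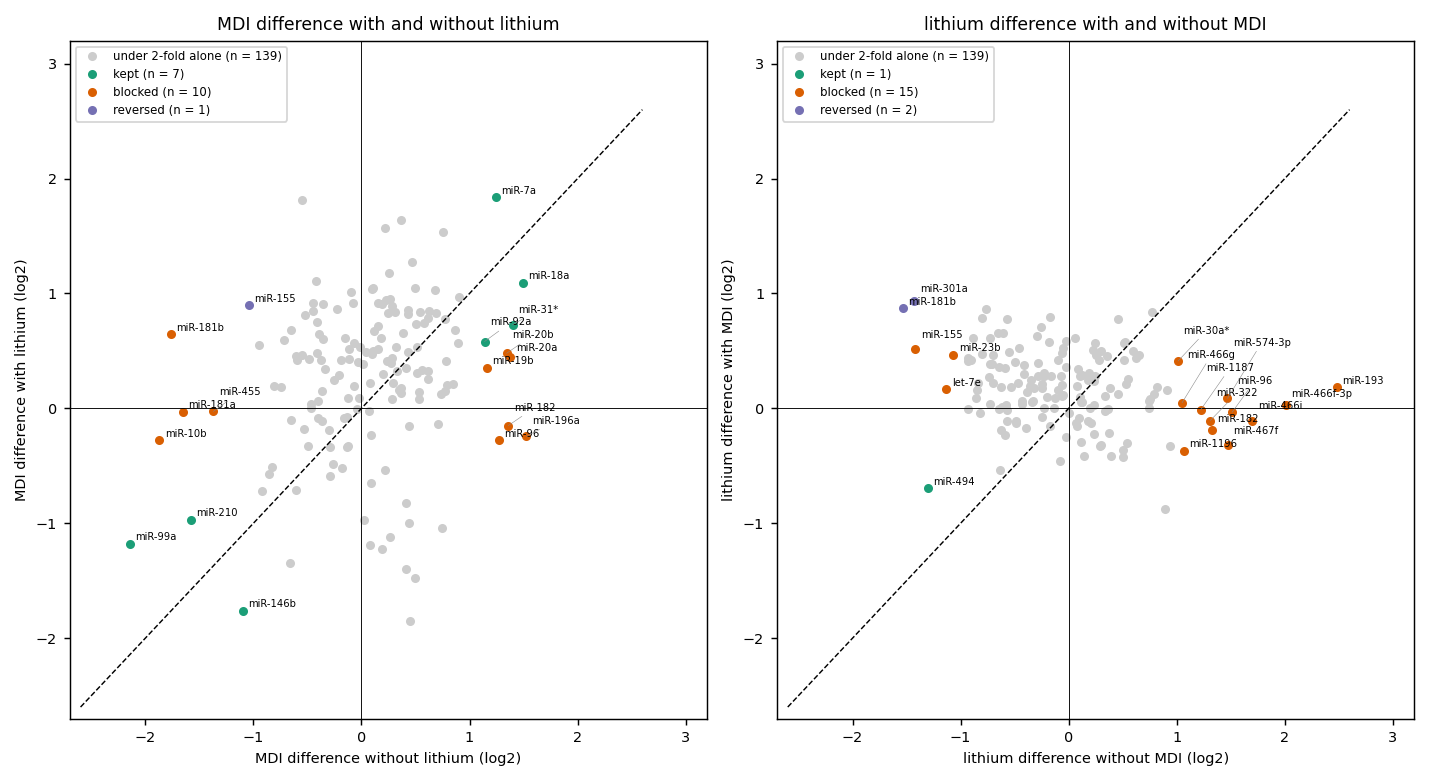
Left, the log2 MDI difference with lithium (y axis) against that without lithium (x axis); right, the log2 lithium difference with MDI (y axis) against that without MDI (x axis), each point a miRNA (n = 157) and the dashed line equality. Of 18 MDI differences of at least 2-fold, 7 were kept, 10 blocked and 1 reversed, and of 18 lithium differences 1 was kept, 15 blocked and 2 reversed, with no lithium difference beyond 2-fold in the presence of MDI. Lithium differences without MDI set slide 2 against slide 1, and those with MDI lay on slide 2 except for MDI array 1.

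Additivity was shown within 2-fold, meaning that the whole 95% interval of the interaction lay between -1 and 1, for 11 miRNAs (7.01%). A wider interval does not show a departure from additivity. miR-27a, which suppresses fat cell differentiation by targeting PPARγ, was the additive miRNA with the largest combined difference. It lay at 0.94, 1.06 and 1.01 in preadipocytes, 2.12, 1.72 and 1.77 after MDI, 1.77, 1.55 and 1.55 after lithium, and 2.38, 2.04 and 2.50 after both. Each single treatment lay above all preadipocytes, and 2 of the 3 combined arrays lay above every other array. The mean of miR-27a was 2.47-fold higher after both treatments than in preadipocytes (limma adjusted p = 0.0133), groups that lay on different slides. The single differences of 0.87 and 0.62 would sum to a level of 2.49, and the measured level was 2.31. The interaction was -0.18 (95% interval -0.90 to 0.53), but it turned to 0.48 and 0.68 with scaling over all mouse probes and with no scaling. miR-31* and miR-27a were the only 2 miRNAs that limma called for the combined treatment against preadipocytes (1.27%). Without preadipocyte array 1 or lithium plus MDI array 1 it called neither, and without lithium plus MDI array 3 it called 36. With the slide as a block or with normexp it called 0.

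miR-30c, a miRNA reported to promote fat cell differentiation, was additive through lithium alone. It lay at -1.29, -1.24 and -1.05 in preadipocytes, -1.51, -1.11 and -1.44 after MDI, -1.10, -0.02 and -0.16 after lithium, and -0.43, -0.62 and -0.48 after both. Its MDI differences were -0.16 without lithium and -0.09 with it, its lithium differences 0.77 and 0.84, and its interaction 0.07 (95% interval -0.81 to 0.95). miR-16 had single differences of 0.20 and 0.36 and an interaction of 0.09, and miR-29c single differences of 0.27 and 0.18 and an interaction of 0.12. The other additive miRNAs were miR-30b, miR-106b, miR-130a, miR-296-5p, miR-324-3p, miR-497 and miR-181a-1*. Of these, miR-181a-1* sat at or near the floor, and miR-324-3p lay low as well, between -4.97 and -4.32. The interactions of miR-30c and miR-16 changed sign without lithium array 1, to -0.26 and -0.01.

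Lithium plus MDI and preadipocytes lay on different slides, so treatment and slide cannot be told apart in what follows. The combined treatment differed from preadipocytes by at least 2-fold in 15 miRNAs (9.55%), 12 higher (7.64%) and 3 lower (1.91%). Of these, 8 also differed by at least 2-fold in the same direction after MDI alone, 2 after lithium alone, and 7 after neither. Among the 7, miR-29b had single differences of 0.77 and 0.24 that summed to its combined difference of 1.01. miR-143, which promotes fat cell differentiation and is encoded in a cluster with miR-145, lay at -1.57, -1.49 and -2.05 in preadipocytes and at -0.41, -0.63 and -0.73 after both, groups that did not overlap. Its single differences were 0.50 after MDI and 0.06 after lithium, its combined difference 1.11 (limma adjusted p = 0.0981) and its interaction 0.55.

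Families and clusters were described by the interactions of their tested members beside the median of 0.26 for all tested miRNAs, with no test. The median over all miRNAs itself depended on the scaling. It was 0.89 with each array scaled by all of its mouse probes, 1.04 with no scaling, 0.05 with quantile normalization, 0.38 with normexp and 0.08 in the authors' value table. All 3 tested miR-181 miRNAs were positive under the main and each of these scalings, with a median of 1.62 in the main one and between 1.08 and 2.49 in the others. Of these 3, miR-181a-1* lay at or near the floor with an interaction of 0.22. As probes for miR-181a and miR-181b may share target, the 3 are not independent observations. The clusters of miR-23, miR-27 and miR-24 had 5 of 6 positive members, a median of 1.03 and, with either wider scaling, 6 of 6. The negative member was miR-27a, while miR-27b, which differs from it at 1 position outside the seed, had an interaction of 1.35 ± 0.77. miR-27b lay at -0.87, -0.54 and -2.83 in preadipocytes, -0.40, -1.63 and -1.56 after MDI, -1.29, -2.36 and -2.32 after lithium, and -0.15, -0.29 and -0.82 after both. The spread of miR-27b within preadipocytes was wide where that of miR-27a was narrow. The let-7 family, which represses proliferation genes and restrains clonal expansion of preadipocytes, had 8 of 10 positive members and a median of 0.70. Of its 10 tested members, let-7i, let-7e, let-7d and let-7g had a positive interaction with an unadjusted p under 0.05, beside 15.3% of all tested miRNAs. Only 5 of the 10 were positive with quantile normalization, where the family's median was 0.23.

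The 5 tested miRNAs with the Sfmbt2 family names all had negative interactions with a median of -1.79. They were 5 of 39 on the array. None of the 5 was detected on all 12 arrays, and with normexp 3 of the 5 were negative with a median of -0.02. All 3 tested members of the cluster of miR-183, miR-96 and miR-182 were negative with a median of -1.51, and 2 of 3 were with the wider percentile, with no scaling and with normexp. All 6 tested members of the miR-17 to miR-92a clusters were negative with a median of -0.68, against 4 of 6 with the wider percentile, 2 of 6 with no scaling, 3 of 6 with normexp and 4 of 6 without lithium plus MDI array 3. The cluster of miR-322, miR-503 and miR-351 had 4 of 4 negative members with a median of -0.73, and 2 of 4 with the wider percentile, with no scaling and with the slide as a block, 3 of 4 with quantile normalization and 1 of 4 with normexp. The miR-30 family had 4 positive and 3 negative members and a median of 0.06.

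**Figure D3:**
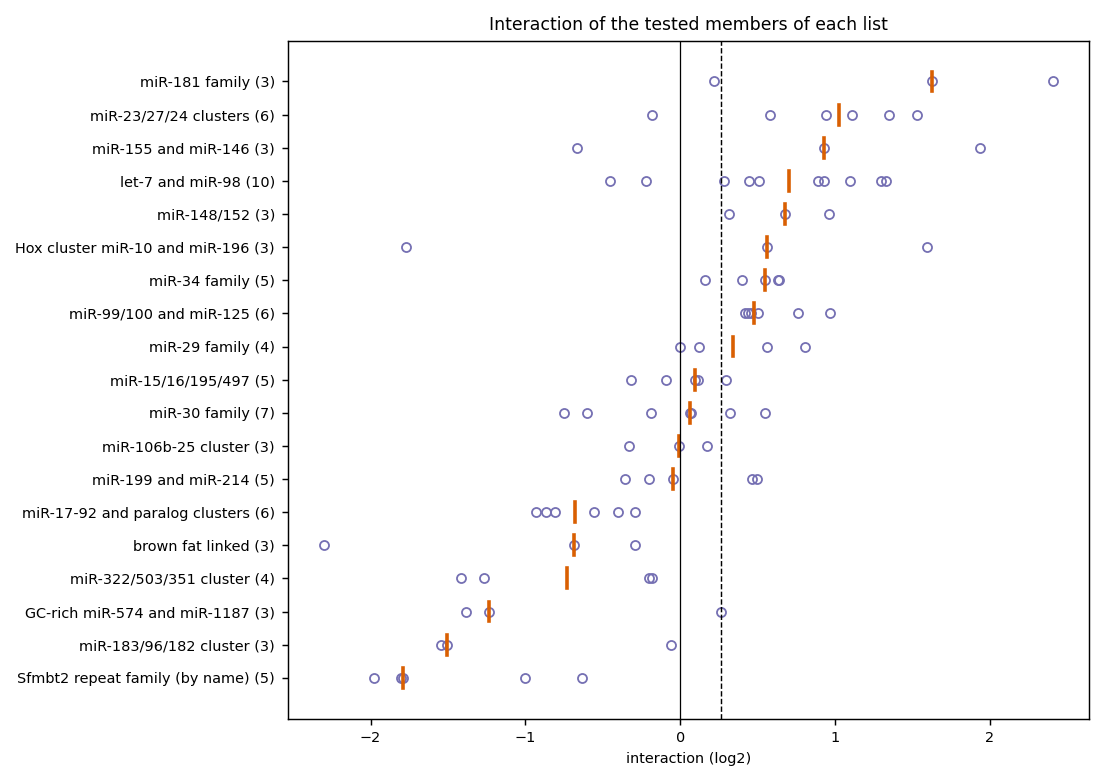
Interaction (x axis, log2) of each tested member (circles) of the families and clusters named on the y axis, with the number of tested members in brackets, the family median as a bar and the median of all tested miRNAs, 0.26, as a dashed line. Medians ran from -1.79 for the Sfmbt2 family names to 1.62 for the miR-181 family, and each family rests on at most 10 tested members.

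miRNAs were also grouped by their reported role in fat cells. Of 24 miRNAs reported to promote fat cell differentiation, 13 were tested, 7 of them positive and 6 negative, with a median interaction of 0.07. Of 33 reported to inhibit it, 21 were tested, 17 of them positive, with a median of 0.51. Of those 21, 5 had an unadjusted p under 0.05, namely miR-155 and the let-7 members d, e, g and i, a share near the 22.3% of all tested miRNAs, and none had an adjusted p under 0.05. The inhibiting miRNAs had median MDI differences of -0.08 without lithium and 0.61 with it. With quantile normalization 11 of the 21 were positive with a median of 0.40, and 3 of the 13 promoting miRNAs were, with a median of -0.18. Of 31 miRNAs reported in WNT signalling, 18 were tested and 15 were positive, with a median of 0.32, close to that of all tested miRNAs.

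The named interactions differed in how far they held under other processing. Of 49 miRNAs followed through every alternative, 39 kept their sign when each array was left out in turn, 32 kept it over all 6 scalings and 30 did both. miR-181b stayed between 2.07 and 2.75 on leaving out single arrays and between 1.48 and 3.28 over scalings. miR-96 stayed between -1.79 and -1.32 on leaving out arrays and between -1.90 and -0.68 over scalings. With quantile normalization limma called 2 interactions, those of miR-532-5p (1.34, adjusted p = 0.0395) and miR-96 (-1.65, adjusted p = 0.0395). In the authors' value table it called 5, those of miR-96, miR-128, miR-185, miR-320 and miR-532-5p. With the slide as a block it called 4, all negative: miR-466f-3p, miR-466i, miR-467f and miR-1196, each with an adjusted p of 0.00427. All but miR-467f entered the tested set through the lithium group alone, so their p-values are no test. Only the MDI group lay on both slides, so the slide term rested on MDI array 1 against MDI arrays 2 and 3. For miR-1196 that array lay at -3.41 and the other 2 at -4.97. With the slide block miR-181b had an interaction of 1.92 (limma adjusted p = 0.224) and miR-301a one of 1.56 (limma adjusted p = 0.386). On slide 2 alone, the MDI difference beside lithium was the full comparison of 3 with 3 arrays, while MDI alone had 1 array on the slide of the preadipocytes. That array lay at -1.28 from the preadipocytes for miR-181b and at -1.19 for miR-181a, against -2.01 and -1.88 for the other 2 MDI arrays. For miR-466f-3p it lay at 1.30, against 0.10 for the others.

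**Figure D4:**
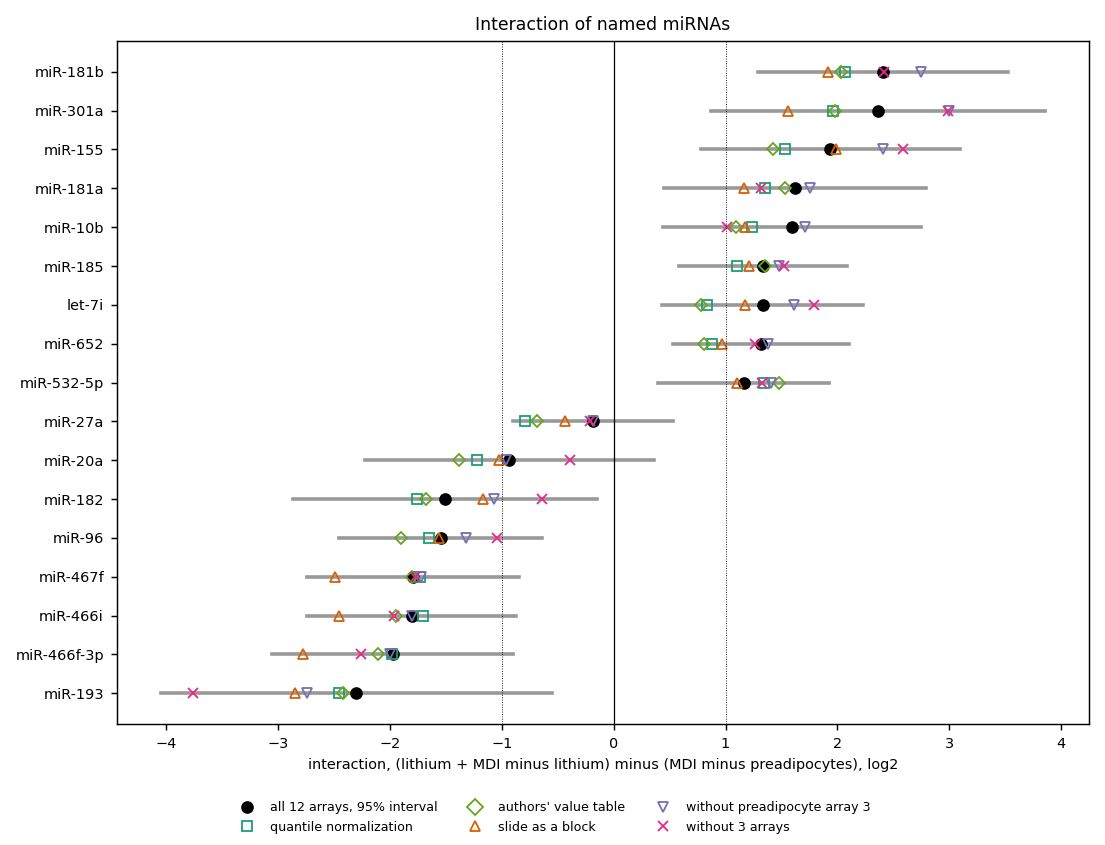
Interaction (x axis, log2) of 17 miRNAs (y axis) from all 12 arrays with the 95% interval (black point and grey line), and under 5 alternatives shown by open symbols and crosses. The values of miR-181b stayed between 1.92 and 2.75 in these settings, those of miR-193 ran from -3.76 to -2.30, and miR-27a stayed within -1 to 1.

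Most miRNAs had several probes, and the brightest probe gave the values above. Of 53 dimmer probes of the named miRNAs that were detected, 50 had an interaction of the same sign as the brightest one.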

How the data were processed

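RNA of 12 samples was hybridised to 1-colour Agilent mouse miRNA arrays. The authors deposited 1 scanner file per array, and per the file headers the processed signal is a background-corrected spot intensity from Feature Extraction 10.5.1.1, whereas the submitters' processing notes name version 9.5.3. The deposited value table, used only as an alternative, was read as log2 because its columns correlated at 0.996 or more with the log2 total gene signal; its medians lay between 0.00175 and 0.0958, and its further normalization is not given in the sources used here.

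Control spots (715), viral probes and spots marked as outliers were left out. No mouse spot was saturated. Spots of a probe were averaged, divided by each array's 75th percentile over the 181 probes detected on all 12 arrays, floored at the 5th percentile (-4.97) and put on the log2 scale; 9.02% of tested values were at the floor. The brightest probe stood for each miRNA. Detection of a probe required the well-above-background mark on over 0.5 of its spots, and testing of a miRNA required it on all 3 arrays of a group. The 12 arrays were fitted with 4 group means in limma 3.58.1 (lmFit, eBayes; R 4.3.3), and p-values were adjusted over 157 miRNAs. Figures were drawn with matplotlib 3.10.9. The fit was tested on simulated data.

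Named were miRNAs with an adjusted interaction p under 0.05, the 10 smallest p among those detected on all 12 arrays, the 4 largest in each pattern, the 4 largest additive ones, and the extreme member of each list. miR-466i, miR-467f, miR-27b, miR-23a, miR-130a, miR-20b, miR-193b, miR-146b, miR-210 and miR-18a, and other names in counts, were chosen after their values were seen. The members and lists were chosen with earlier results of these data known. Alternatives covered scaling, background correction, floor, filter, probes, fit, slide, replicate number and each left-out array. The number of arrays limits the precision.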

Additional observations from a re-analysis of the deposited data

Results flagged for a closer look

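The arrays also carry probes for viral miRNAs, which entered no comparison. All 4 probes named for the miRNA mghv-miR-M1-2 of a mouse herpesvirus gave scaled signal above the preadipocyte level in at least 1 treated group, on all 3 arrays of that group. Without the scaling this was so for none of the 4 probes. In linear units of each array's 75th percentile, probe A_54_P2215 lay at 0.0529, 0.0473 and 0.0416 in preadipocytes, 0.114, 0.0676 and 0.0802 after MDI, 0.0892, 0.0657 and 0.0770 after lithium, and 0.0844, 0.0650 and 0.0576 after both. Every treated array of this probe lay above every preadipocyte array on that scale. Before division by the 75th percentile, which was higher on the 3 preadipocyte arrays (502.6 to 779.7) than on the treated arrays (264.5 to 476.6), the probe lay between 26.6 and 32.4 in preadipocytes and between 22.4 and 31.9 on treated arrays, and 0 treated arrays exceeded the highest preadipocyte array. The highest treated values of the other probes were 0.0768 for A_54_P2212, 0.0995 for A_54_P2213 and 0.0978 for A_54_P2214, against highest preadipocyte values of 0.0307, 0.0419 and 0.0454. The preadipocyte arrays share slide 1 with MDI array 1 only, which held the highest scaled value of all 4 probes, and the part of the slide in these values was not tested.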

How the results depend on the processing

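In the main processing limma called 0 interactions, 11 miRNAs were additive within 2-fold, and 11 of 18 MDI and 17 of 18 lithium differences were not kept. The number of differences of at least 2-fold changed with the setting, so counts not kept are given out of that number. On leaving out each array in turn, interaction calls ranged from 0 to 26 and additive miRNAs from 5 to 20. MDI differences not kept ranged from 8 to 16, out of 18 to 23. Lithium differences not kept ranged from 14 of 14 to 37 of 37. Scaling by all mouse probes gave 20 calls and 3 additive, with 45 of 52 MDI and 71 of 72 lithium differences not kept. No scaling gave 61 calls and 7 additive, with 52 of 55 and 59 of 59 not kept. Quantile normalization gave 2 calls, 26 additive and 17 of 22 MDI differences not kept. Normexp gave 0 calls with 3 at an unadjusted p under 0.05, 0 additive, and 3 of 5 and 3 of 3 not kept. The authors' value table gave 5 calls, and 19 of 24 and 29 of 30 not kept. Array weights, whose estimation stopped before convergence, gave 82 calls, 32 additive, and 18 of 29 and 50 of 55 not kept. The slide block gave 4 calls and 6 additive, with 22 of 33 and 31 of 32 not kept. Floors at the 1st and 10th percentile gave 7 and 23 additive, with 18 of 25 MDI differences not kept at the first and 8 calls at the second. The mean of detected probes gave 21 additive and detection on at least 1 array 44. Detection on all 12 arrays gave 9 of 10 lithium differences not kept. A 1.5-fold size limit gave 26 of 49 and 53 of 59 not kept. Without 3 arrays together, chosen after seeing the data, there were 69 calls and 53 of 57 lithium differences not kept. The cause of these shifts was not tested, except that fewer miRNAs could enter under the all-array filter.

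The replicate block gave 4 calls, those of miR-181b, miR-466f-3p, miR-466i and miR-467f (limma adjusted p = 0.0481 each). For miR-466f-3p and miR-466i, which entered through the lithium group alone, the p-value is no test. Same-numbered arrays did not pair: 9 of 18 pairs had correlated deviations over 0.1 (range -0.48 to 0.47), and 6 of 12 arrays correlated best with their own number.

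Interactions that changed sign did so at these values. With array weights they were miR-103 -0.29, miR-16 -0.08, miR-18a 0.11, miR-30c -0.27, miR-92a 0.66, miR-93 0.07 and miR-99a -0.57. In the authors' value table they were miR-103 -0.50, miR-130a -0.85, miR-16 -0.01, miR-199a-3p -0.09, miR-29c -0.28 and miR-30c -0.35. With the mean of detected probes it was miR-30c -0.11. With no scaling they were miR-146b 0.20, miR-193b 0.18, miR-195 0.55, miR-20b 0.00 (just above 0), miR-27a 0.68, miR-30a 0.12, miR-31* 0.20, miR-92a 0.31 and miR-93 0.54. With normexp they were miR-103 -0.04, miR-130a -0.22, miR-18a 0.40, miR-195 0.26, miR-20b 0.07, miR-31* 0.16, miR-574-3p 0.07 and miR-93 0.03. With all mouse probes they were miR-195 0.34, miR-27a 0.48, miR-92a 0.10 and miR-93 0.33. With quantile normalization they were miR-103 -0.27, miR-130a -0.46, miR-16 -0.10, miR-199a-3p -0.13, miR-29c -0.27 and miR-30c -0.18. With the slide block they were miR-103 -0.18, miR-143 -0.07, miR-146b 0.36, miR-210 -0.04 and miR-494 -0.16. Without the 3 arrays they were miR-103 -0.60, miR-16 -0.02, miR-18a 0.20, miR-30c -0.35, miR-92a 0.78, miR-93 0.22 and miR-99a -0.96. On leaving out single arrays the ranges that crossed 0 were miR-103 -0.57 to 0.69, miR-130a -0.07 to 0.19, miR-16 -0.08 to 0.23, miR-18a -0.80 to 0.20, miR-29c -0.04 to 0.28, miR-30c -0.26 to 0.27, miR-494 -0.04 to 1.00, miR-7a -0.05 to 1.67, miR-92a -1.06 to 0.31 and miR-93 -0.67 to 0.24. Of the values followed for named interactions and single-difference calls, 1194 kept direction and side of the threshold, 60 counts of single-difference calls moved by over 1.5 times, and 128 interaction values passed the threshold under an alternative.

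Signal over background limits the detected set: 409 of 611 miRNAs were detected on no array, and a miRNA at the floor carries no order.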
